A study of Mus musculus with 8 samples.

Results

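Mouse macrophages were exposed to lipopolysaccharide (LPS) for 195 min. In 84 of the 11415 genes in the deposited table, precursor RNA was then at 0.595% to 16.04% of untreated while spliced mRNA stayed above 50%. They were chosen from group means by 3 thresholds: an untreated pre-mRNA of 100 normalized reads or more, a ratio of untreated to LPS pre-mRNA of 6 or more after adding 10 to both, and a ratio of untreated to LPS mRNA below 2. The values of LPS against untreated in both measures therefore chose the members, and they are given below as a description. Of 440 genes with this pre-mRNA fall, 96 met the mRNA limit, and 12 of those were left out by name (solute carriers, cathepsins and others such as Trem2, Gm2a and Gpnmb). The 319 genes with the same pre-mRNA fall, an mRNA ratio of 2 or more and the same names left out served as comparison genes.

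The cells were bone marrow-derived macrophages, grown for 5 days in medium conditioned with the growth factor M-CSF, from 129S6/SvEvTac mice of genotype IL10-/-RAG2-/-. All 4 groups, controls included, thus lack the Il10 gene, so that no intact IL-10 of their own is made, and lack Rag2, which lymphocytes need to mature. The groups were untreated cells, cells given 1 ng/mL LPS for 195 min, cells given LPS together with 1 ng/mL IL-10 for the whole 195 min ("full-course IL-10"), and cells whose 195 min of LPS ended with 30 min of added IL-10 ("late IL-10"). Each group had 2 libraries, described as independent macrophage pools. The labels give no ages, and no IL-10 dose for the late group.

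LPS is a bacterial wall component that macrophages sense through Toll-like receptor 4, and IL-10 is a cytokine that restrains the response through STAT3. A precursor RNA is spliced soon after it is made, so its level follows recent transcription closely. The level of an mRNA depends on both synthesis and decay, and an mRNA that decays slowly stays present for a time after its gene stops being transcribed. No half-life was measured here, and "stable" describes a level at a single time. Resting macrophages engulf and degrade debris, handle lipids and iron and make lipid mediators.

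The recovered depth per library ran from 21412968 to 53172133 reads in mRNA and from 8661271 to 31508394 in pre-mRNA. Values below are reads divided by the library's size factor ("normalized reads"), given for both libraries of a group, where the order of the values within a group does not tie a library to any library of another group or of the other measure. All 9 macrophage markers examined were in the table, with a summed mRNA per library of 508748 to 520139 untreated, 822398 to 879139 with LPS, 647752 to 674604 with full-course IL-10 and 837866 to 842670 with late IL-10, and none of the 5 B cell markers was. Summed stromal and endothelial markers (Pdgfra, Cdh5, Kdr) were at 666.6 to 860.7 with full-course IL-10 and 1140 to 2175 in the other groups. Summed dendritic cell markers (Zbtb46, Xcr1, Ccr7, Batf3, Itgax) went from 1363 to 2911 in untreated libraries to 9528 to 17955 with LPS, 3057 to 4661 with full-course IL-10 and 8944 to 16008 with late IL-10. Summed neutrophil markers, 6 of 8 in the table, were at 50.89 to 293 in untreated libraries and 791.6 to 1412 in the treated ones. Summed T cell markers (Cd4, Lck, Cd28) were at 3341 to 5608 in untreated libraries and 409.1 to 956.7 in the treated ones. A change in the number of cells of a type and a change in RNA per cell cannot be told apart in these bulk libraries. The part of these markers in the results was not tested.

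Over the members, pre-mRNA with LPS had a median of 10% of untreated (quartiles 7.05% and 12.04%, range 0.595% to 16.0%). The mRNA had a median of 65.0% (quartiles 58.8% and 78.0%, range 50.2% to 168%), against 19.7% in the comparison genes. The untreated libraries stood above both LPS libraries in the pre-mRNA of 83 members (36.5% of all fitted genes) and in the mRNA of 60 members (34.2% of all fitted genes). In a limma fit over all genes, 83 members were lower in pre-mRNA with LPS (21.7% of all genes) and 16 were lower in mRNA (16.5% of all genes). None was higher in either measure (22.3% of all genes in pre-mRNA and 19.2% in mRNA). These counts restate the rule and nothing is read from them.

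The label depends on how the libraries were scaled. The size factors inferred from the deposited values set the median gene equal between groups. With the same reads scaled to total reads instead, a choice made after the data were seen, the median mRNA of all genes moved by -0.75 on the log2 scale for LPS against untreated and the median pre-mRNA by -0.92. Only 14 of the 84 members then kept an mRNA ratio below 2, while 36 other genes met the rule (50 in all). For the members, the median ratio of untreated to LPS mRNA went from 1.54 to 2.57. In mRNA 66 members were lower rather than 16, where 4496 of all genes were lower rather than 1887. The pre-mRNA count stayed at 83 members, while that of all genes went from 2418 to 4682. The sentences below hold relative to the median gene, which is what the deposited scaling measures.

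**Figure D1:**
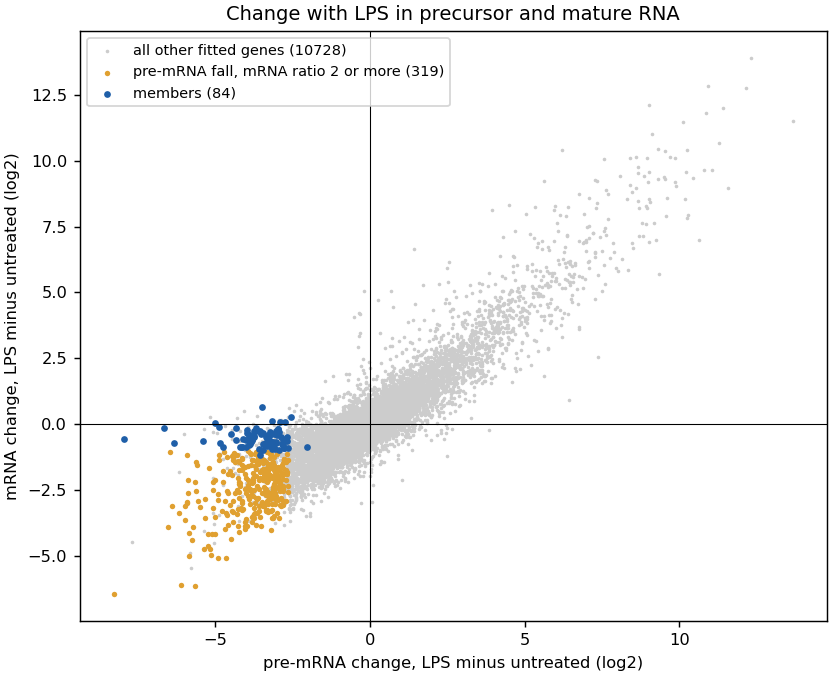
Change with LPS in pre-mRNA (x axis, log2, LPS minus untreated) and mRNA (y axis, log2, same contrast), each point a gene fitted in both measures. The 84 members (blue) lie far to the left and mostly below 0 on the y axis (median -0.62). Most lie above the 319 comparison genes (orange, median -2.38), as the rule requires, and all other genes are grey.

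Genes just inside and just outside a threshold had close values, so the thresholds do not mark a gap. Rogdi, at 103.9 untreated pre-mRNA reads, was just inside and Fkbp7, at 93.61, just outside. For the pre-mRNA ratio, Adgre5 at 6.05 was inside and Lhpp at 5.94 outside. For the mRNA ratio, Lta4h at 1.99, Nfia at 1.97 and Shisa9 at 1.95 were inside, and Chn2 at 2.01, Ethe1 at 2.04 and Pigb at 2.06 outside. One member rests on a single library. Taco1, a mitochondrial translation factor, had untreated pre-mRNA of 66.05 and 1357 against 48.18 and 108 with LPS, so that its groups overlapped.

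The lipoprotein and lipid transport members (7 genes) included the genes whose precursor stood highest with full-course IL-10. Lrp1, a large endocytic receptor for lipoproteins and protease complexes, had mRNA of 129370 and 189526 in untreated cells, 143178 and 109709 with LPS, 97814 and 159441 with full-course IL-10 and 109996 and 149403 with late IL-10. Its pre-mRNA was 6278 and 7962 untreated, 319.6 and 633 with LPS, 2814 and 6584 with full-course IL-10 and 483.9 and 1488 with late IL-10. The mRNA ranges of the 4 groups overlapped, whereas the LPS and late pre-mRNA lay well below untreated. Pltp, the phospholipid transfer protein, had mRNA of 17334 and 20929, then 13251 and 19056, then 19673 and 15613, then 19763 and 13537 in the same order of groups. Its pre-mRNA was 4044 and 4441 untreated, 299.6 and 387.3 with LPS, 3335 and 2847 with full-course IL-10 and 1294 and 1206 with late IL-10. The 4 pre-mRNA groups were fully separated and the mRNA groups all overlapped. Abca9, a lipid transporter of the ABC family, went from 647.2 and 252.1 pre-mRNA reads to 47 and 12.15 with LPS and 3.687 and 6.472 with full-course IL-10, with 46.8 and 24.69 under late IL-10. Fabp5, a fatty acid carrier, had untreated pre-mRNA of 933.8 and 2244 against 115.2 and 183.5 with LPS. The median mRNA of the 7 genes with LPS was 68.1% of untreated (61.0% to 84.4%).

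Carriers of iron, heme, selenium and vitamin B12 (5 genes) held the deepest precursor loss. Trf, transferrin, an iron carrier, had pre-mRNA of 750 and 837.9 untreated, 0 and 9.447 with LPS, 1.475 and 6.472 with full-course IL-10 and 0 and 6.733 with late IL-10. Its mRNA was 8485 and 8423 untreated, 4669 and 7036 with LPS, 6254 and 3969 with full-course IL-10 and 7298 and 4520 with late IL-10. All treated libraries were below all untreated libraries in both measures, with group means of 0.424% to 0.595% of untreated in pre-mRNA and 60.5% to 69.9% in mRNA. Sepp1, selenoprotein P, had mRNA of 89092 and 49433 untreated and 39713 and 96287 with LPS, with pre-mRNA of 2652 and 1285 falling to 91.65 and 41.84. The mRNA values overlapped and varied widely between libraries within a group. Mfsd7b, the heme exporter also named Flvcr1, had mRNA of 5875 and 4120 untreated and 2718 and 3229 with LPS. Tcn2, a vitamin B12 carrier, kept 75.9% of its untreated mRNA and Hebp1, a heme-binding protein, 60.5%.

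Secreted and matrix proteins (8 genes) kept the highest median mRNA of the roles, 84.5% of untreated. Timp2, an inhibitor of matrix metalloproteinases, had pre-mRNA of 3256 and 4459 untreated and 112.8 and 151.2 with LPS, with 140.9 and 159.6 under full-course IL-10 and 152.8 and 117.8 under late IL-10. The treated groups overlapped each other, with means of 3.42% to 3.90% of untreated. Its mRNA was 19022 and 13885 untreated and 8466 and 11504 with LPS. Lgals3, galectin-3, had pre-mRNA of 14200 and 25675 untreated, 2830 and 2169 with LPS, 1161 and 1286 with full-course IL-10 and 1769 and 1711 with late IL-10. Its mRNA, 71746 and 76908 untreated, was 48435 and 73777 with LPS. Gsn (gelsolin, an actin-severing protein) and Edil3, a matrix ligand of integrins, kept 107% and 91.0% of their mRNA.

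The 3 eicosanoid synthesis genes act in making leukotrienes and prostaglandin D2. Alox5ap, which presents arachidonate to 5-lipoxygenase, had pre-mRNA of 2487 and 2882 untreated and 82.25 and 167.4 with LPS, with mRNA of 10200 and 13315 against 10224 and 7777. Lta4h, which makes leukotriene B4, had pre-mRNA of 923.2 and 1135 against 95.18 and 182.2. Hpgds, a prostaglandin D2 synthase, had pre-mRNA of 5018 and 3429 against 318.4 and 545.2. The mRNA of Alox5ap overlapped between groups, whereas that of Lta4h (1039 and 1617 against 721.3 and 610.7) did not.

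Detoxification and carbonyl enzymes (9 genes) kept a median of 79.5% of untreated mRNA (59.3% to 107%). Aldh2, a mitochondrial aldehyde dehydrogenase, had mRNA of 18369 and 28680 untreated and 19411 and 21838 with LPS, while its pre-mRNA went from 1922 and 1753 to 65.8 and 306.4. Ephx1, an epoxide hydrolase, had pre-mRNA of 269 and 342.4 untreated and 0 and 13.5 with LPS. Abcc3, an export pump for conjugated compounds, had pre-mRNA of 2730 and 2398 against 36.43 and 97.17. None of these pre-mRNA groups overlapped.

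Among 10 energy, nucleotide and mitochondrial genes the median mRNA with LPS was 61.2% of untreated. Ldhb, a lactate dehydrogenase subunit, had pre-mRNA of 328.7 and 157.4 untreated, 0 and 4.049 with LPS, 0 and 6.472 with full-course IL-10 and 8.83 and 3.366 with late IL-10, with mRNA at 90.2% of untreated with LPS. Ckb, the brain-type creatine kinase, had mRNA of 2977 and 3708 untreated and 3751 and 3145 with LPS. Pink1, a mitochondrial quality control kinase, had mRNA of 3292 and 3520 against 2059 and 1925, with groups that did not overlap. Idh2, mitochondrial isocitrate dehydrogenase, had mRNA of 1302 and 1417 against 746 and 864.3.

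Lipid and fatty acid enzymes (6 genes) and lysosomal and Golgi glycan enzymes (4 genes) had mRNA medians of 64.6% and 67.3% of untreated. Fads3, a fatty acid desaturase family member, had pre-mRNA of 292.4 and 255 untreated, 14.1 and 24.29 with LPS, 112.8 and 242.7 with full-course IL-10 and 28.26 and 68.45 with late IL-10. Its mRNA was 86.65 and 94.33 untreated, 56.67 and 63.03 with LPS, 110.8 and 114.8 with full-course IL-10 and 27.68 and 52.04 with late IL-10. Both measures were highest among treated groups with full-course IL-10, without overlap. Man2b1, a lysosomal mannosidase, kept 87.2% of its mRNA with LPS (25480 and 29517 against 23982 and 23983). Galc, which degrades galactosylceramide, had mRNA of 7265 and 7210 against 4264 and 4831. Of a list of 60 lysosomal, sphingolipid and lipid handling genes tested, chosen with earlier results known, 30 fell and 10 rose in pre-mRNA with LPS (21.7% and 22.3% of all genes), with a median log2 change of -1.25 against 0.00 over all genes. In mRNA 12 fell and 6 rose (16.5% and 19.2% of all genes), with a median of -0.29 against 0.01. The list's members here were Galc, Man2b1, Fabp5 and Naglu.

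Receptors and other membrane proteins (11 genes) had an mRNA median of 59.7% of untreated. Cadm1, an adhesion molecule, had the highest pre-mRNA reads of the members, a value not corrected for length, at 55608 and 45351 untreated, 4881 and 2863 with LPS, 9782 and 5681 with full-course IL-10 and 6082 and 3844 with late IL-10, with mRNA of 31483 and 29602 against 23475 and 27291 with LPS. Plxnc1, a semaphorin receptor, had pre-mRNA of 8005 and 9388 untreated, 904.8 and 835.4 with LPS, 320.1 and 502.7 with full-course IL-10 and 795.6 and 818 with late IL-10. Fcgrt, the IgG salvage receptor, had pre-mRNA of 802.2 and 577 against 35.25 and 56.68 with LPS and 15.49 and 29.12 with full-course IL-10. Ptgfrn, a tetraspanin partner, had pre-mRNA of 749 and 649.9 untreated, 64.63 and 78.28 with LPS, 228.6 and 263.2 with full-course IL-10 and 64.46 and 104.4 with late IL-10. The full-course IL-10 libraries of Ptgfrn were above, and those of Plxnc1 below, every LPS and late library. From the list of 81 macrophage surface receptors tested, 22 fell and 28 rose in pre-mRNA with LPS (median -0.02), where 21.7% and 22.3% of all genes did.

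Signalling, cell cycle and nuclear genes (15 genes) included Rb1, the retinoblastoma tumour suppressor, with pre-mRNA of 14890 and 12826 against 1851 and 1503. Rb1 overlaps Gm17233 on the same strand, and Lpar6 and the comparison gene Rcbtb2 on the opposite strand, so its reads too cannot be assigned with certainty. Nav2, a cytoskeleton-linked protein, had pre-mRNA of 15140 and 17243 against 2934 and 1815. Ccnd3, cyclin D3, had pre-mRNA of 2147 and 1179 untreated, 121 and 95.82 with LPS, 137.9 and 160.7 with full-course IL-10 and 250.8 and 271.6 with late IL-10. Lmna, nuclear lamin A/C, had mRNA of 12143 and 11691 against 11331 and 14830. Hist1h2be, a histone gene, had the highest mRNA ratio to untreated, 168%, from 117.1 and 146.5 to 300.9 and 142.9, with groups that overlapped, and it overlaps Hist1h1e on the same strand, so its reads cannot be assigned with certainty. From the phosphoinositide list of 36 genes, 10 fell and 8 rose in pre-mRNA with LPS, and from the kinase and phosphatase list of 64, 14 fell and 18 rose, where 21.7% and 22.3% of all genes did. Itpr3, Ptpn22 and Ptpn18 were the members in them. The other 4 lists held no member, with 12 fallen and 12 risen of 46 macrophage transcription factors, 9 and 7 of 37 chromatin cofactors, 18 and 15 of 64 GTPase regulators and 8 and 7 of 38 TGF-beta and Wnt genes.

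Trafficking and cilium genes (6 genes) had an mRNA median of 60.4%. Vps13c, a lipid transfer protein at organelle contacts, had pre-mRNA of 6305 and 4510 untreated, 413.6 and 610 with LPS, 1226 and 2055 with full-course IL-10 and 537.8 and 718.2 with late IL-10. Bbs9, a part of the cilium BBSome, had pre-mRNA of 2193 and 1419 against 240.9 and 180.8. full-course IL-10 stood apart from both other treated groups in Vps13c and not in Bbs9 (169.6 and 239.5).

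**Figure D2:**
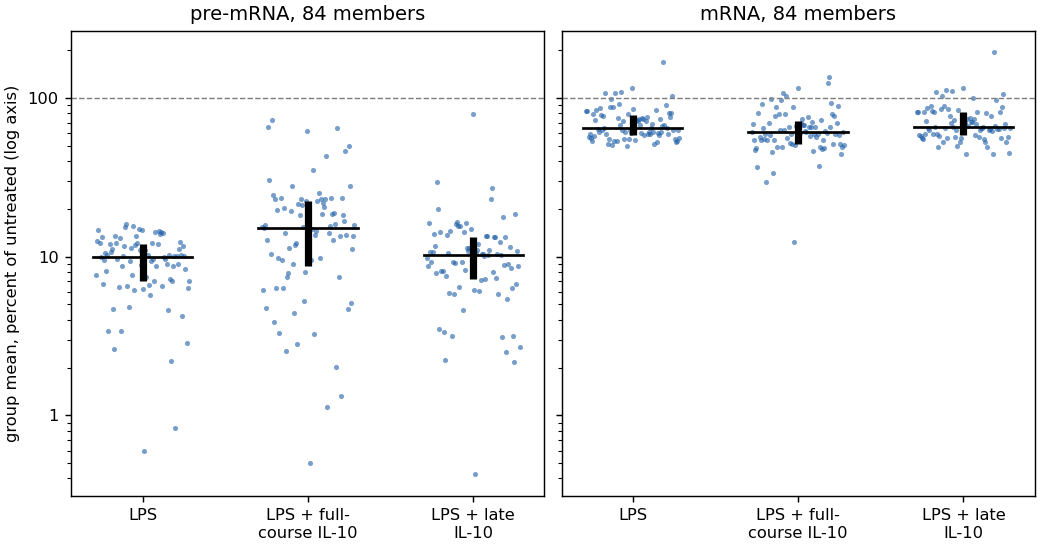
Group mean as percent of untreated (log axis) for the 84 members, pre-mRNA left and mRNA right, with each point a gene, the line the median and the bar the quartiles. The pre-mRNA medians were 10%, 15.1% and 10.2% under LPS, under full-course and under late IL-10, and the mRNA medians 65.0%, 61.0% and 65.8%.

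The ratio of mature to precursor signal in untreated cells is built from values that the rule also used, and it is given as a description. The median of untreated mRNA per exon kb over untreated pre-mRNA per intron kb was 14.5 in 82 members (quartiles 6.62 and 28.5), 8.82 in 315 comparison genes (quartiles 4.97 and 14.2) and 7.54 in 8756 genes with untreated pre-mRNA of 100 or more. The median total of intron bases per gene was 23.6 kb in members, 28.9 kb in comparison genes and 23.8 kb in all such genes. The median total of exon bases per gene was 3.96, 5.23 and 5.01 kb. Untreated pre-mRNA medians of members and comparison genes were 848.5 and 879.3 normalized reads.

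**Figure D3:**
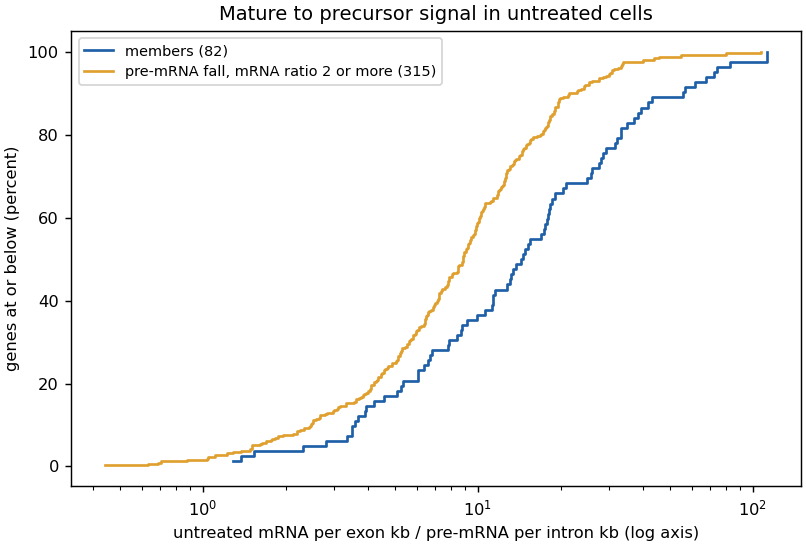
Cumulative share of genes (y axis, percent) by untreated mRNA per exon kb over pre-mRNA per intron kb (log x axis) for 82 members (blue) and 315 comparison genes (orange). The members' curve lies to the right, with medians of 14.5 and 8.82.

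The study's remaining comparisons concern IL-10 and its timing. The main test set full-course IL-10 against late IL-10, whose values the rule did not use. These groups differ in when IL-10 was added and in how long it was present, and the late dose is not given. The test is not fully independent of the rule, because the fit takes its spread from all 4 groups. Late IL-10 pre-mRNA of the members also lay near LPS (median log2 difference 0.06). Low LPS pre-mRNA may therefore favour higher values here too, which was not tested. In pre-mRNA 2 members were higher with full-course IL-10 (0.755% of all genes were) and 0 were lower (2.2% of all genes). At an unadjusted p under 0.05 the counts were 22 higher and 5 lower (8.73% and 12.9% of all genes), and limma-voom also gave 2 higher and 0 lower. The median member was higher by 0.52 on the log2 scale, against 0.00 over all genes and 0.66 over the comparison genes, of which 12 were higher and 2 lower. Of the members, 60 of 84 had a positive estimate, as did 247 of 319 comparison genes and 5596 of all 11131 fitted genes. The libraries of the groups did not overlap in 38 members upward (26% of all genes) and 12 downward (27.1% of all genes). Total-read scaling moved the median of all genes by a further 0.43 in this direction. Then 1 member was higher and 0 lower, as were 144 and 208 of all genes.

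Pltp passed with a log2 difference of 1.30 ± 0.21 (SE, n = 2 libraries per group) and adjusted p = 0.032 by limma. Ptgfrn passed with 1.57 ± 0.31 and adjusted p = 0.046. Both groups of each gene were separated, at 3335 and 2847 against 1294 and 1206 for Pltp and at 228.6 and 263.2 against 64.46 and 104.4 for Ptgfrn. Neither call survived every library left out. The Pltp value was 1.19 to 1.42 (adjusted p up to 0.24) when either library of either IL-10 group was removed, and the Ptgfrn value 1.23 to 1.91 (adjusted p up to 0.32). Leaving out either untreated library also ended both calls (adjusted p 0.060 to 0.088), with the values unchanged. Lrp1 differed by 2.34 ± 0.61 (adjusted p = 0.078), Plxnc1 by -1.01 ± 0.25 (adjusted p = 0.072), Vps13c by 1.35 ± 0.34 (adjusted p = 0.072) and Fads3 by 1.89 ± 0.55 (adjusted p = 0.11). These 4 did not pass.

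Further members sat close to the threshold between the schedules, and they came from different roles. Ift27, a small GTPase of cilium transport, had pre-mRNA of 47.94 and 62.56 with full-course IL-10 and 8.83 and 16.83 with late IL-10 (2.08 on the log2 scale, adjusted p = 0.052), against 23.5 and 24.29 with LPS. Nt5dc2, a member of a nucleotidase family, had 59 and 144.5 against 0 and 8.977 (adjusted p = 0.059), with 10.58 and 37.79 under LPS. Both genes had late libraries below their LPS libraries. Alox5ap had 219 and 307.4 against 69.76 and 110 (adjusted p = 0.075), and Gsn 358.4 and 815.5 against 158.9 and 222.2 (adjusted p = 0.087). By role, the median pre-mRNA with full-course IL-10 was lowest in the iron, heme, selenium and vitamin carriers, at 9.59% of untreated, and highest in lipoprotein and lipid transport, at 23.2%, where the range ran from 1.13% (Abca9) to 72.9% (Pltp). Eicosanoid synthesis genes stood at 21.2%, trafficking and cilium genes at 19.6%, signalling and nuclear genes at 13.4% and membrane proteins at 12.8%. With late IL-10 the same medians ran from 6.38% in detoxification and carbonyl enzymes to 14.9% in lipoprotein and lipid transport. The roles hold 3 to 15 genes each and were assigned after the members were known, so no test was made between them.

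**Figure D4:**
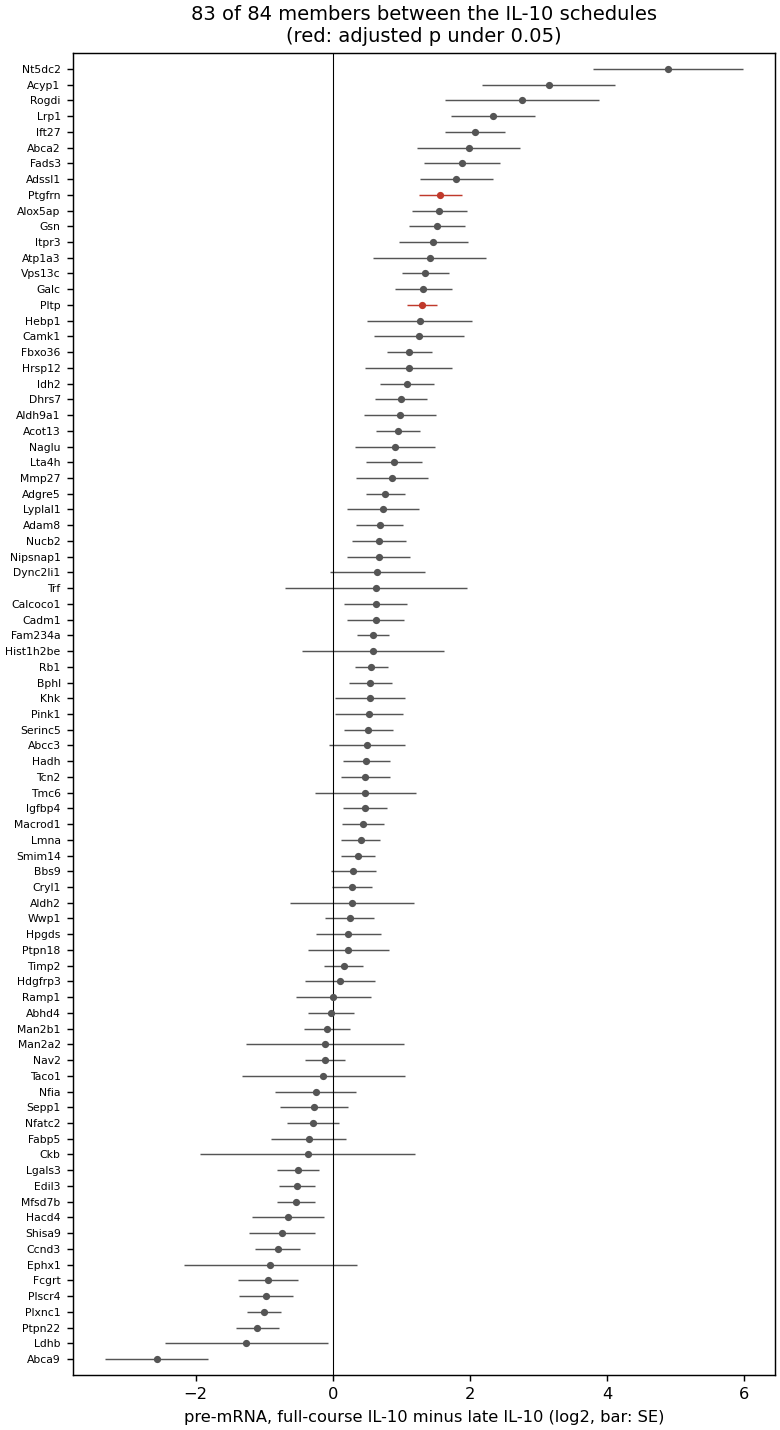
Pre-mRNA difference between full-course IL-10 and late IL-10 (x axis, log2) for 83 of the 84 members in rising order, with bars for the standard error and red for an adjusted p under 0.05. Only Pltp (1.30) and Ptgfrn (1.57) are red, and most points lie right of 0.

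full-course IL-10 was also set against LPS alone, a comparison that shares its LPS libraries with the rule, so that low LPS pre-mRNA favours higher values. In pre-mRNA 5 members were higher (2.44% of all genes were) and 2 lower (4.26% of all genes). Pltp was higher by 3.17 ± 0.21 (adjusted p = 0.0021), Lrp1 by 3.26 ± 0.61 (adjusted p = 0.025), Fads3 by 3.09 ± 0.55 (adjusted p = 0.022), Ptgfrn by 1.77 ± 0.31 (adjusted p = 0.020) and Vps13c by 1.66 ± 0.34 (adjusted p = 0.033). Ptpn22, a phosphatase that limits immune receptor signalling, was lower by -1.45 ± 0.31 (adjusted p = 0.037) and Plxnc1 by -1.11 ± 0.25 (adjusted p = 0.043). Neither lower call held under total-read scaling, where 7 members were higher and 0 lower. The call of Plxnc1 was lost with each of the 8 libraries left out in turn and that of Ptpn22 with 7 of them. Only Pltp kept its call without the first LPS library, without either full-course IL-10 library and with no filter on low values. Comparison genes gave 39 higher and 5 lower of 319. With late IL-10 against LPS, 47 of 84 members had a positive pre-mRNA estimate (42.9% of all genes did). Pltp was the only member called higher (0.979% of all genes), by 1.87 ± 0.21 (adjusted p = 0.0079), and 0 were called lower (0.0629% of all genes). That call was lost without either late library (adjusted p 0.093 and 0.076).

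**Figure D5:**
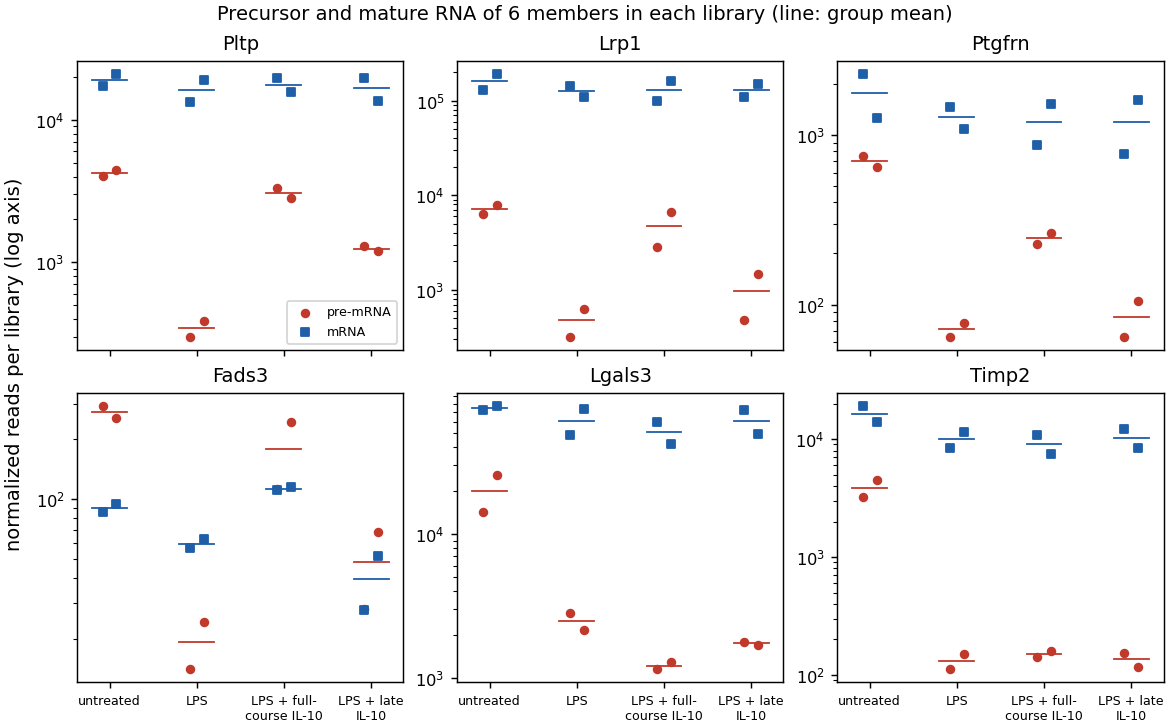
Normalized reads per library (log axis) of 6 members in the 4 groups, red circles pre-mRNA and blue squares mRNA, with the line the group mean. In Pltp, Lrp1, Ptgfrn and Fads3 the full-course IL-10 pre-mRNA sits above LPS, in Timp2 it overlaps LPS and in Lgals3 it lies below, while mRNA moves far less in all but Fads3.

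No member passed the test in mRNA in these comparisons. Against LPS, 0 members were higher and 0 lower in mRNA with full-course IL-10 (1.19% and 1.05% of all genes), with 2 and 2 at an unadjusted p under 0.05 (6.27% and 8.37% of all genes). Between the IL-10 schedules the counts were 0 and 0 (0.517% and 0.569%), with 1 and 2 unadjusted (6.04% and 7.99%), and late IL-10 against LPS gave 0 and 0 (0% in either direction), with 0 and 0 unadjusted (0.806% and 0.131%). The limma-voom fit gave 0 in each of these. The median mRNA difference between full-course IL-10 and late IL-10 was -0.16 on the log2 scale, against -0.01 for all genes. In Pltp the mRNA difference between the schedules was 0.10 ± 0.29 where the pre-mRNA difference was 1.30. The sizes that could be seen were limited. In a simulation with 2 libraries a group, 4% of pre-mRNA changes of 1 log2 unit and 70% of changes of 2 units were recovered, and 5% and 63% in mRNA. The changes were placed only in genes above a low-count limit. Counting noise was added to a fitted spread that already holds it, so these shares depend on the settings and are approximate.

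With full-course IL-10, 68 of 84 members had mRNA at 50% or more of untreated, where the rule set all 84 above 50% with LPS. Among genes with untreated mRNA of 100 or more, 8363 of 9809 did. Nfatc2 and Ptpn22, 2 of the members below 50%, stood at 29.7% and 12.3% of untreated. Both were lower than untreated (adjusted p = 0.0060 and 0.0035 by limma), and neither passed against LPS or late IL-10. Nfatc2, a calcium-regulated transcription factor, had mRNA of 2838 and 2584 untreated, 1684 and 2521 with LPS, 966 and 641.8 with full-course IL-10 and 2552 and 1964 with late IL-10, which differed between the schedules by -1.51 ± 0.29 (adjusted p = 0.075). Ptpn22 had mRNA of 501.4 and 572.2 untreated, 204 and 390.8 with LPS, 58.08 and 74.38 with full-course IL-10 and 374.6 and 194 with late IL-10 (-2.02 ± 0.43, adjusted p = 0.092). The full-course IL-10 libraries of both lay below all other libraries of the gene.

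Against untreated cells, the precursors stayed low whichever way IL-10 was given. With full-course IL-10 73 members were lower in pre-mRNA (14.7% of all genes) and 0 were higher (14.1%), and with late IL-10 82 were lower (21.6%) and 0 higher (21.9%). In mRNA 21 were lower with full-course IL-10 (11.6%) and 15 with late IL-10 (16.8%), with 0 higher in both (14.2% and 19.3%). Among the members with the highest pre-mRNA under full-course IL-10, Pltp stood at 72.9% of untreated, Lrp1 at 66.0% and Fads3 at 64.9%, and under late IL-10 at 29.5%, 13.9% and 17.7%. The untreated libraries helped choose the members, so these counts are a description.

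Genes of the mm10 build could overlap the members and share their reads. Of the members, 27 overlap a gene on the opposite strand and 8 a gene on the same strand (33 in all), and the strand used in counting is not given in the sources used here. Pltp lies at chr2:164839518-164857711 on the minus strand and shares 1515 bases with Ctsa on the plus strand. Ctsa, a lysosomal protease left out of the members by its name, had pre-mRNA of 2783 and 2884 untreated, 235 and 574.9 with LPS, 2760 and 3498 with full-course IL-10 and 706.4 and 1268 with late IL-10. Ctsa too was highest among the treated groups with full-course IL-10, and its part in the Pltp values was not tested. Neurl2, a nearby comparison gene that shares 0 bases with Pltp, had pre-mRNA of 9.4 and 10.8 with LPS. It had 408.6 and 356 with full-course IL-10 and 19.43 and 10.1 with late IL-10. Pcif1, also nearby, had 760.3 and 1011, then 579.7 and 989.1, then 871.5 and 1160 in that order. Ptgfrn lies at chr3:101040232-101110278 on the minus strand and overlaps Gm43465 on the same strand, Lrp1 at chr10:127538161-127621148 on the minus strand and overlaps Gm16217 on the opposite strand, and Fads3 at chr19:10041569-10060110 on the plus strand, with no overlap.

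The bases upstream of 4 members whose precursor was higher with full-course IL-10 than with LPS are shown beside those of Ldhb, whose precursor stayed near 0, to let their sequences be compared. They come from the RefSeq promoter table on mm10, read 5′ to 3′ on the gene's strand, with bases inside the annotated gene left out, and capitals mark CCAAT or its reverse complement, ATTGG.
Pltp, chr2:164857712-164857958, minus strand: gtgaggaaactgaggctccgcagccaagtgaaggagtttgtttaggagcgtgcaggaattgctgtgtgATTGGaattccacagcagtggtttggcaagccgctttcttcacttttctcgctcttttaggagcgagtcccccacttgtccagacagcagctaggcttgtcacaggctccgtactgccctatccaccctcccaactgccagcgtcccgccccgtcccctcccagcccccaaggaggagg
Ptgfrn, chr3:101110279-101110416, minus strand: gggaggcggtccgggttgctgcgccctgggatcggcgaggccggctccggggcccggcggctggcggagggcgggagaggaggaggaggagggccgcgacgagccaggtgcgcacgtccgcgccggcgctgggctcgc
Lrp1, chr10:127621149-127621398, minus strand: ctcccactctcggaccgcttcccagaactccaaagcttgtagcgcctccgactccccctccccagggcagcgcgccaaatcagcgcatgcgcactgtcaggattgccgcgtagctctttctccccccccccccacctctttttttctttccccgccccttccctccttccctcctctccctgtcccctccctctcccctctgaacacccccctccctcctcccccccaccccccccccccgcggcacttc
Fads3, chr19:10041298-10041547, plus strand: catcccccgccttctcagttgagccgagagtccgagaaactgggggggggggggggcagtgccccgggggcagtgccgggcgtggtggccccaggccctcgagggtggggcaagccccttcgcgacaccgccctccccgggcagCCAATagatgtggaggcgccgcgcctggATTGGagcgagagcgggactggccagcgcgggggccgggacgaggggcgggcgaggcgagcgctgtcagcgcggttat
Ldhb, chr6:142507958-142508207, minus strand: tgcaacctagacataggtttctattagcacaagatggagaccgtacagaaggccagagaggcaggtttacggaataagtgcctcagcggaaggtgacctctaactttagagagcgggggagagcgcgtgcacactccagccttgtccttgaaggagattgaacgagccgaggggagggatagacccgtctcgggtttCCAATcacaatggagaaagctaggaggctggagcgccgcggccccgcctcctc

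A match is a description of letters. In windows of 250 bases upstream, 65 of 84 members and 9212 genes in all had an entry, and 7 motifs were searched on both strands. CCAAT occurred in 28 member windows (43.1%, against 36.5% of all windows), CACGTG, the E-box, in 5 (7.69% against 8.68%) and TATAAA in 5 (7.69% against 6.50%). GAGGAAGT, a PU.1 type site, occurred in 2 (3.08% against 2.58%), an interferon regulatory factor type site in 3 (4.62% against 2.91%) and TGANTCA, an AP-1 site, in 1 (1.54% against 4.36%). A form of the NF-kB site occurred in 0 (0% against 0.358%). No motif contains another, and the windows of Lrp1 and Ptgfrn had none of the 7. Member windows had a median GC content of 58.8% against 59.6% in all windows.

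The paired libraries of a treated group also differed among themselves in the members. In pre-mRNA the library with the smaller size factor was higher in 56 of 84 members with LPS, 70 with full-course IL-10 and 59 with late IL-10, by medians of 0.54, 0.44 and 0.42 on the log2 scale, against 41 of 84 in untreated cells and a median of 0 in all genes.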

How the data were processed

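The deposited table gives, per gene, a normalized signal for mRNA and for pre-mRNA in 4 groups: per the file headers a value per group and measure, which by their arithmetic are the mean over 2 libraries of reads divided by a size factor. The submitters' processing notes name Trim Galore, DESeq and mm10; how reads were called precursor or mature is not given in the sources used here. Of 299 genes without an annotated intron, 235 had no pre-mRNA read.

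Each deposited value was split back into the whole reads of its 2 libraries, with a relative error of 1e-13 allowed. Of the values, 100% resolved, with 0 second solutions. Size factors recomputed from these reads equalled those inferred from the deposited values. The libraries cannot be matched to sample numbers. In simulated columns, 100% of values were returned.

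limma 3.58.1 (R 4.3.3, trend) was fitted to log2(value + 1), all 8 libraries of a measure together, for genes with a mean of 1 or more (11131 in pre-mRNA, 11415 in mRNA), with Benjamini-Hochberg adjustment over all genes and a threshold of 0.05. The fold changes are on that log2 scale, which understates low genes. Whether the 2 pools came from separate animals is not stated, so p-values measure the spread between these libraries. Counts are taken as recovered reads, and no count model was the main test. Alternatives were limma-voom, pseudocounts 0.5 and 10, no filter and a minimum of 20, total-read scaling and leaving out each library. Named genes were drawn from those with the most untreated precursor, the extreme mRNA ratios, calls between schedules, those nearest a threshold and list members. Not every such gene is named, and others were added to fill each role, after their values were seen. Genes were placed with GENCODE M21 (11365 of 11415 matched, all 84 members). Members, roles and gene lists were chosen with earlier results of these data known. The table's lowest LPS mRNA was 11 reads in a library, so it was filtered before deposit. One member is counted in the totals but not reported here by name.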

Additional observations from a re-analysis of the deposited data

Results flagged for a closer look

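Pltp and Ptgfrn differed between the IL-10 schedules in pre-mRNA, by a test of the difference itself. Pltp was 1.30 log2 units higher with full-course IL-10 than with late IL-10 (higher in both libraries than in both others, adjusted p = 0.032 by limma) and Ptgfrn 1.57 (adjusted p = 0.046). Over the alternatives the adjusted p ran from 0.025 to 0.24 for Pltp and from 0.040 to 0.32 for Ptgfrn.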

How the results depend on the processing

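No paired analysis was possible because the columns carry no replicate number. Between the IL-10 schedules, 2 members were higher in pre-mRNA, and this became 0 with no filter on low values, 4 with a pseudocount of 10 and 1 with total-read scaling, and 0 to 5 with a library left out. Against LPS, the 5 higher with full-course IL-10 became 1 with no filter and 1 to 7 with a library left out. The 2 lower became 1 with limma-voom, 0 with no filter, 0 with total-read scaling and 0 to 3 with a library left out. The 1 higher with late IL-10 became 0 to 2. The cause was not tested. Of the 84 members 14 met the rule under total-read scaling, which changes the mRNA ratio for all genes, and 36 other genes met it. None of the 10 called differences of single members against LPS or between the schedules reversed sign under these alternatives, and every mRNA count against LPS or between schedules stayed at 0. Pltp against LPS with full-course IL-10 kept its call in 14 of 14 alternatives, at 2.99 to 3.63. The number of libraries, 2 a group, sets the limit on precision.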
